A study of Mus musculus with 2 samples.

Results

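Cytosolic ribosomal protein genes were examined on 2 single-colour expression arrays of primary mouse keratinocytes, the epithelial cells of the epidermis, together with the copies of these genes that are used in particular tissues. A gene belonged to the set when its symbol was Rpl, Rps or Rplp with a number, or Rpsa, leaving out the S6 kinases and the pseudogenes. The rule used symbols only and no measured value. It found 85 of the 20144 named genes, read by 172 of 55678 probes. Of the 85, 76 encode core proteins of the ribosome and 9 are paralogues or retrogenes, copies of a core gene elsewhere in the genome. A further 9 symbols of the rule, among them Rps23, matched no probe.

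Of the 2 samples, each represented by 1 array, one is labelled Rac3-KO, a knockout of Rac3, and named as the control, and the other is labelled Rac1Rac3-DKO, a knockout of Rac1 as well as Rac3. By their labels both samples share the Rac3 knockout, and no wild-type sample was analysed here. Rac1 and Rac3 are small GTPases known for their control of the actin cytoskeleton. Per the labels, both samples are P3 primary keratinocytes; how Rac1 was deleted and how many animals stand behind a sample were not given in the sources used here. With 1 array per genotype there was no replicate check, no test between genotypes was possible, and every error given is technical, the signal error that the scanner software attaches to a spot.

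Ribosomal proteins and ribosomal RNA make up a large 60S and a small 40S subunit, which together translate messenger RNA. Their messengers are among the most abundant of a growing cell, and most begin at a C followed by a run of pyrimidines, the terminal oligopyrimidine tract, through which growth signals adjust their translation. Some core genes have a paralogue made mainly in a single tissue: Rpl3l in skeletal muscle and heart, Rpl10l and Rpl39l in the male germ line. In skin, loss of a copy of Rps19 or Rps20 darkens mouse skin through p53.

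The tract was looked for in the RefSeq promoter table of build GRCm38.p6, searched on the strand of the gene as a C followed by at least 4 bases that are each C or T. Of the 56 core genes in the table, 13 (23.2%) had these letters exactly from the annotated start on, against 813 of 27025 genes (3.01%) in the whole table. With a run beginning anywhere within 10 bases of the start, the counts were 33 of 56 core genes (58.9%) and 9297 of all genes (34.4%). None of the 8 paralogues and retrogenes in the table had a run at the start itself, and 6 had it within 10 bases. The windows below are shown because they set core genes with a tract at the start (Rps6, Rpl38, Rps27; in Rps6 and Rps27 the run opens 1 and 2 bases earlier) beside Rpl39, paralogues and the muscle paralogue Rpl3l. Each runs from 40 bases before to 20 bases from the start on, 5′ to 3′, with the longest run that opens within 10 bases of the start in capitals (in Rps27l the letters c and t just before the capitals continue the run) and, for Rpl3l, the hexamer CAGCTG as well.
Rps6 (chr4:86857348-86857407, minus strand): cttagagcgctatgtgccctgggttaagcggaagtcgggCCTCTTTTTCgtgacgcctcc
Rpl38 (chr11:114668540-114668599, plus strand): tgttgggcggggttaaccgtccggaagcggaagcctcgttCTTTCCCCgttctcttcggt
Rps27 (chr3:90213629-90213688, minus strand): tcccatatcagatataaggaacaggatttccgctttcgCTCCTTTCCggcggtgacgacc
Rps27l (chr9:66946046-66946105, plus strand): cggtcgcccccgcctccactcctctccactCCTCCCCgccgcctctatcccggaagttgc
Rpl39 (chrX:37085203-37085262, minus strand): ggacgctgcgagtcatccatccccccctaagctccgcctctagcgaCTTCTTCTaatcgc
Rpl39l (chr16:10170188-10170247, plus strand): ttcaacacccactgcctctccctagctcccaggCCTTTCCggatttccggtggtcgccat
Rpl22l1 (chr3:28805468-28805527, plus strand): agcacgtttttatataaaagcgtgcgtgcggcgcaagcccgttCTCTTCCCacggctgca
Rpl3l (chr17:24727786-24727845, plus strand): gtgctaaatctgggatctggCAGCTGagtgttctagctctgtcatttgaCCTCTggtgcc
Rps27l and Rpl3l each have a further annotated start in the table, with no such run near it. CAGCTG is an E-box, the kind of site that muscle transcription factors of the MyoD family can bind. It reads the same on both strands and occurred in the 300-base promoter of 2 of 56 core genes (3.57%), of 7 of the 9 skeletal muscle marker genes in the table (77.8%) and of 4944 of all 27025 genes (18.3%). In Rpl3l it lay 20 bases before the start shown, and the promoter of its further annotated start did not hold it. Rpl10l also held it, and the other paralogues and retrogenes in the table did not, which makes 2 of 8 (25%). Such matches describe the letters in these windows and are not measured binding sites.

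The scanner software called 56.9% (Rac3-KO) and 52.9% (DKO-labelled) of all probes well above background, and no spot was saturated. The 75th percentile of the signal, to which each array was scaled, was 705 and 354, so a gene with equal scaled levels had about a 2-fold lower raw signal on the DKO-labelled array. Rac1 was not lower there (log2 difference 0.28 with a signal error of 0.20), and Rac3 was well above background on both arrays, so these probes, whose place relative to the deleted parts was not known here, did not check the genotypes. Markers of other tissues than epidermis were detected too. For 9 of 10 keratinocyte markers the DKO-labelled level was at least 2-fold lower (median log2 difference -1.82), and for 11 of 12 skeletal muscle markers at least 2-fold higher (median 2.60), with fibroblast and leukocyte markers higher by medians of 0.80 and 0.99. In such mixed samples fewer cells of a type and less RNA per cell cannot be told apart. All levels and differences below are log2 values of the processed signal relative to each array's 75th percentile, and a difference is the DKO-labelled minus the Rac3-KO array.

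The core ribosomal protein genes differed little between the arrays. All 76 were well above background on both, and 0 of 76 were at least 2-fold higher or lower, while among the 14144 measured genes those past 2-fold made up 7.71% upwards and 6.62% downwards. Higher genes were thus 53.8% of all those past 2-fold, or 43.6% when arrays were scaled by their median. The core genes had a median difference of -0.01 with an SD between genes of 0.23, and lay between -0.55 and 0.60. Over all measured genes the median was -0.01 and the SD 0.74. The comparison was not matched for level: the median level on the Rac3-KO array was 0.94 over all measured genes, against 7.95 for the core genes. On the Rac3-KO array the core levels ran from -0.60 through a median of 7.95 to 8.97, and on the DKO-labelled array from -1.15 through 7.87 to 9.32, so the ranges of the arrays overlapped almost entirely. Differences past the 95% limits of the signal error were found for 4 core genes upwards and 4 downwards, against 24.2% and 24.3% of all measured genes. The median signal error was 0.20 both for the core genes and for all measured genes, so these limits act nearly as a fixed cutoff. This small spread stood beside the large differences of keratinocyte and muscle markers on the same arrays.

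**Figure D1:**
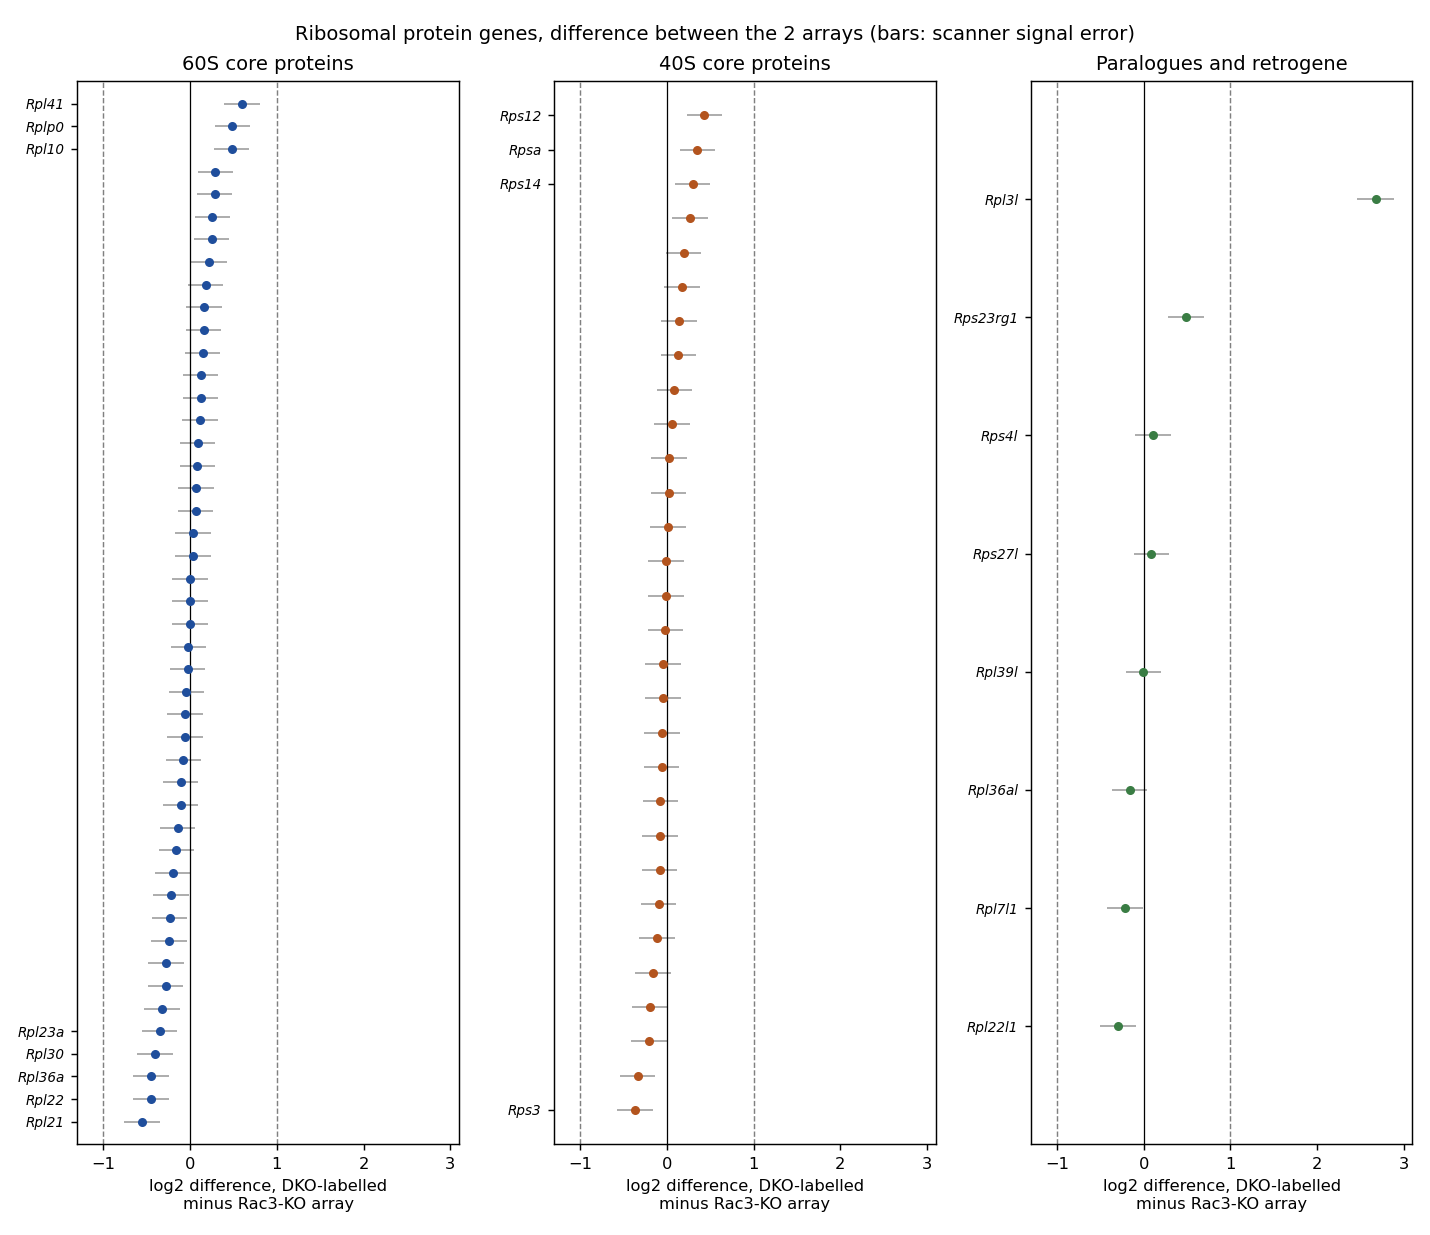
Log2 difference between the DKO-labelled and the Rac3-KO array for each measured gene (1 row a gene, ordered by difference, with the 6 highest and 6 lowest core genes labelled), in panels for 60S core proteins, 40S core proteins, and paralogues with 1 retrogene; points are single differences, bars the scanner's signal error, dashed lines 2-fold. All core genes lie between -0.55 and 0.60, and Rpl3l stands alone at 2.68.

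The large and small subunits gave like values. The 46 measured 60S genes had a median difference of -0.003 and lay between -0.55 and 0.60; the 30 measured 40S genes had a median of -0.01 and lay between -0.37 and 0.43. Of the 60S genes 21 were above 0 and 25 below, and of the 40S genes 13 and 17. Ribosomal proteins that carry other symbols lay within the same range: Fau, the precursor of a 40S protein, differed by 0.09, and Rack1, a scaffold on the 40S head, by 0.13.

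The core genes with the highest differences were Rpl41, Rplp0, Rpl10, Rps12, Rpsa and Rps14. Rpl41, which encodes the smallest ribosomal protein, had processed signals of 285185 (Rac3-KO) and 217221 (DKO-labelled) and differed by 0.60, with a signal error of 0.20. Later pairs of signals are given in the same order. Rplp0, the base of the stalk that recruits elongation factors, had signals of 320942 and 225963 and differed by 0.49. The lateral stalk proteins that it carries lay close to 0, with differences of -0.02 for Rplp1 and 0.03 for Rplp2. Rplp0 itself depended on the probe, since its 3 probes ran from 0.10 to 0.49.

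Rpl10, which joins the 60S subunit late and borders its catalytic centre, had signals of 247333 and 173372 and differed by 0.48, with its 3 probes between 0.36 and 0.52. Rps12, a protein of the 40S beak, differed by 0.43 with signals of 271310 and 183879. Rpsa, also known as a laminin receptor, had signals of 253470 and 162639 and a difference of 0.35, while its 4 probes ran from -0.20 to 0.35. Rps14, whose human counterpart is lost in the 5q- syndrome, had signals of 333852 and 206367 and a difference of 0.30. With quantile normalization Rpl41 and Rpl10 stood at 0.14 each and Rps12 at 0.02, while Rplp0, Rpsa and Rps14 stood below 0, at -0.05, -0.01 and -0.26. With scaling by the median all 6 stayed above 0.

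The core genes with the lowest differences were Rpl21, Rpl22, Rpl36a, Rpl30, Rps3 and Rpl23a. Rpl21, a 60S protein, had signals of 466 and 160 and differed by -0.55 (signal error 0.21). Its second probe, with signals of 318 and 110, gave -0.54. Both probes were dim for a core gene, and the core probes at a mean level below 4 had a median difference of -0.56. Rpl22, which binds small viral and cellular RNAs and is needed for T cell development, had signals of 121390 and 44551 and differed by -0.45. Rpl36a differed by -0.45 with signals of 79166 and 29070, and its 3 probes spanned only -0.45 to -0.38.

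Rpl30, which regulates the splicing of its own transcript in yeast, had signals of 95808 and 36342 and a difference of -0.41. Rps3, a 40S protein that also takes part in DNA repair, differed by -0.37 with signals of 82316 and 32105, but its other probe gave 0.29. Rpl23a, near the exit of the peptide tunnel, had signals of 115592 and 45496 and differed by -0.35. None of the 6 reached 2-fold on these arrays at the scaling used.

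Values follow for core genes with known roles in growth control and skin. They lie in the narrow range given above because all core genes did. Rpl5 and Rpl11, which bind the 5S RNA and can restrain Mdm2, the inhibitor of p53, differed by -0.33 and 0.03. Rps19 and Rps20, whose mutations darken mouse skin, differed by -0.34 and 0.19, with signals of 76164 and 30283 for Rps19 and of 334974 and 192276 for Rps20. Rps6, the substrate of the S6 kinases, had signals of 172676 and 75778 and a difference of -0.20, with its 3 probes between -0.66 and -0.20, and Rps27a, a ubiquitin fusion, differed by -0.08. Rpl38, which favours the translation of Hox messengers in the embryo, differed by 0.14, and Rpl24, mutated in the belly spot and tail mouse, by 0.12. By the median, the tract at the start set no group apart: its 13 carriers had a median difference of -0.01 and lay between -0.28 and 0.14. The other 43 core genes in the promoter table had a median of 0.01 and a wider range, from -0.45 to 0.60. With a run within 10 bases, 33 core genes had a median of -0.02, and the 23 without had 0.09.

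Of the 9 paralogues and retrogenes, of which Rpl10l was not measured, Rpl3l alone was at least 2-fold apart. Over all measured genes the share past 2-fold in either direction was 14.3%, and so small a count does not set the paralogues apart. Rpl3l replaces Rpl3 in the ribosomes of striated muscle. Its processed signals were 129 and 416, although raw signals were in general lower on the latter. On the scaled levels this was -2.45 and 0.23, that is 2.68 higher (signal error 0.22), or 6.39-fold. The parent Rpl3 had signals of 104922 and 48814 and a difference of -0.11. The difference of the paralogue minus that of the parent was 2.79 with a signal error of 0.30. With normexp background correction it was 2.37. On the spike-in scale Rpl3l itself differed by 0.60; a constant per array cancels in the paralogue minus the parent.

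Rpl3l is read by 1 probe, and 11 of 12 skeletal muscle markers were at least 2-fold higher too. All 12 markers were well above background on both arrays. Their processed signals summed to 323013 and 891169, and their differences ran from -0.02 for the adult fast myosin gene Myh4 to 3.14 for Actn3, a fast-fibre Z-disc protein. The difference of Rpl3l, 2.68, lay close to the median of this list, 2.60. Of 4 heart markers, Myh6 and Myl7 were not measured, while Tnnt2, which developing skeletal muscle also makes, differed by 1.79 and Nppa by 0.71. The part of muscle RNA in the Rpl3l difference was not tested.

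**Figure D2:**
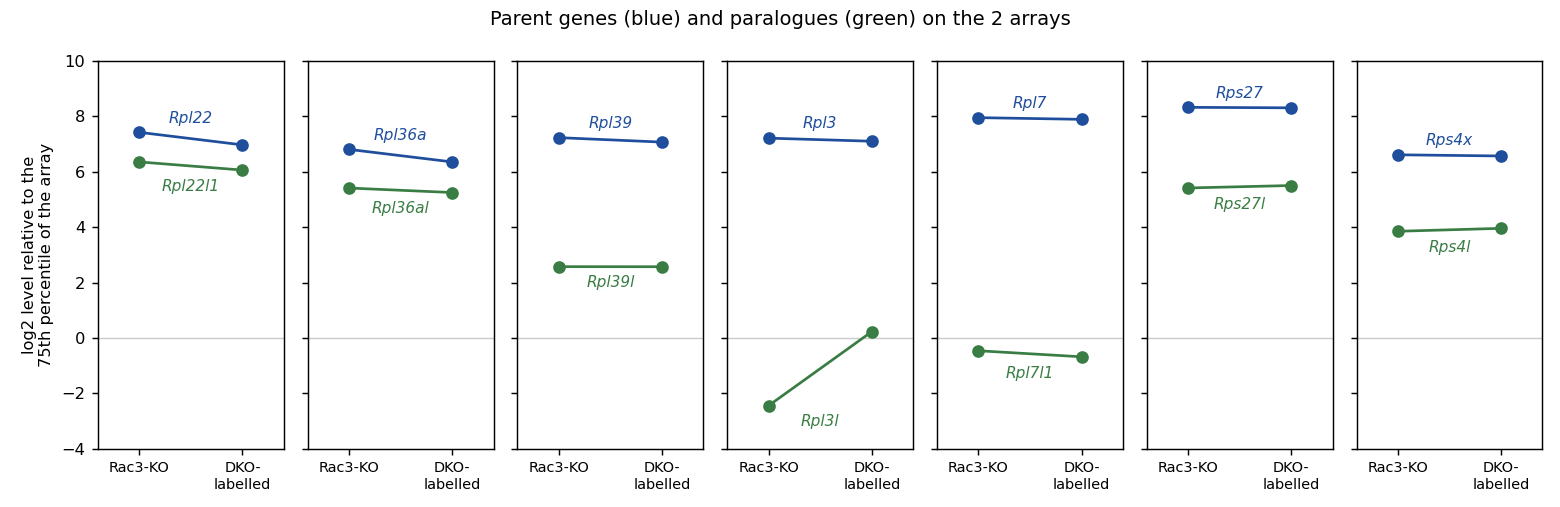
Log2 level relative to each array's 75th percentile (vertical axis) on the Rac3-KO and the DKO-labelled array for 7 pairs of a parent gene (blue) and its paralogue (green); each point is 1 probe on 1 array, and heights of different genes are not comparable because probes differ. The Rpl3l line goes from -2.45 to 0.23, while the parents Rpl22 and Rpl36a are lower by differences of -0.45 each, Rpl22l1 differs by -0.29 and the remaining lines are closer to level.

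In the other 6 pairs the paralogue and its parent differed by no more than about 1 signal error. Rpl22l1, which can take the place of Rpl22, had signals of 57858 and 23710 and a difference of -0.29, beside -0.45 for Rpl22, so that the paralogue minus the parent was 0.16 with a signal error of 0.29. Rpl36al, an intronless copy of Rpl36a with an almost identical protein, had signals of 30095 and 13513 and differed by -0.16; minus the parent this was 0.29 with a signal error of 0.29. Rps27l, a p53 target, had signals of 30131 and 16112, differed by 0.09, and stood at 0.11 relative to Rps27. The 95% limits from the signal error alone ran from -0.41 to 0.72 for Rpl22l1 and from -0.28 to 0.86 for Rpl36al, so these pairs are not shown to be alike.

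Of the paralogues known from the germ line, Rpl39l was measured by 1 probe and Rpl10l was undetected. Rpl39l had signals of 4204 and 2109 and a difference of -0.003. Relative to Rpl39 this was 0.16 with 95% limits of -0.41 and 0.72, and 0.40 with normexp, so this pair is not shown to be alike. Neither of the 2 probes of Rpl10l was well above background on either array, with signals of at most 5.89 and 4.54, so it has no fold here. Of 4 germ cell markers only the meiotic gene Sycp3 was well above background on both arrays, with signals of 28.8 and 33.0. Rpl39l was thus measured on both arrays beside germ cell markers that were near or below background.

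Of the remaining copies, a pair each was formed with Rpl7 and Rps4x, and a retrogene had no measured parent. Rpl7l1, a nucleolar relative of Rpl7, had signals of 512 and 221 and differed by -0.22, or -0.16 relative to Rpl7 with 95% limits of -0.73 and 0.41. Rps4l, matched through a non-coding accession, had signals of 10192 and 5515 and differed by 0.11, or 0.15 relative to Rps4x with limits of -0.42 and 0.72. Rps23rg1, a retrogene of Rps23, had signals of 408 and 287 and differed by 0.49 (signal error 0.21); its parent had no probe, so the pair could not be compared. Ribosomal protein genes have many processed copies in the mouse genome, probe sequences were not used here, and reads of several copies by a probe cannot be told apart.

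Different probes of a core gene disagreed in a patterned way. Of the 76 core genes 50 had several probes well above background on both arrays, up to 7 for Rpl17. Relative to the brightest probe of its gene, a dimmer probe gave a lower difference in 55 of 83 cases (66.3%), with a median of -0.11. For all genes with several probes the share was 49.5% and the median 0.004. When the dimmer probe lay at least 8-fold below the brightest, 14 of 17 core probes were lower, with a median of -0.51, against 49.2% of 1310 probes over all genes. Dim probes of core genes thus mostly gave lower differences than the bright probes of the same genes, and over all genes the shares stood near an even split. The probes of all genes were not matched to the core probes for level.

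Rps15a was among the members whose probes lay at least 1 apart. The probes of this 40S protein gave differences from -1.20 to 0.02, the last from its brightest probe with signals of 123852 and 63255. The gene is represented among the core values above by the bright probe. For Rpl23 the probe spotted 10 times gave -0.67 with an SD between spots of 0.11, while the brightest probe gave 0.28, so the disagreement between probes was larger than the spread between spots. Across the 159 probes of core genes the difference was higher at higher mean levels, with Pearson's r = 0.70 and Spearman's rho = 0.74, as a description over probes that share the same 2 hybridisations. Across the 14144 measured genes r was 0.01. Their median level on the Rac3-KO array was 0.94, and bright genes outside the core were not examined apart. Whether those share the trend was therefore not tested. Of the 50 core genes with several measured probes, 17 had probes of both signs and the others kept a single sign, such as Rpl17 with 7 probes from -0.57 to -0.02.

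**Figure D3:**
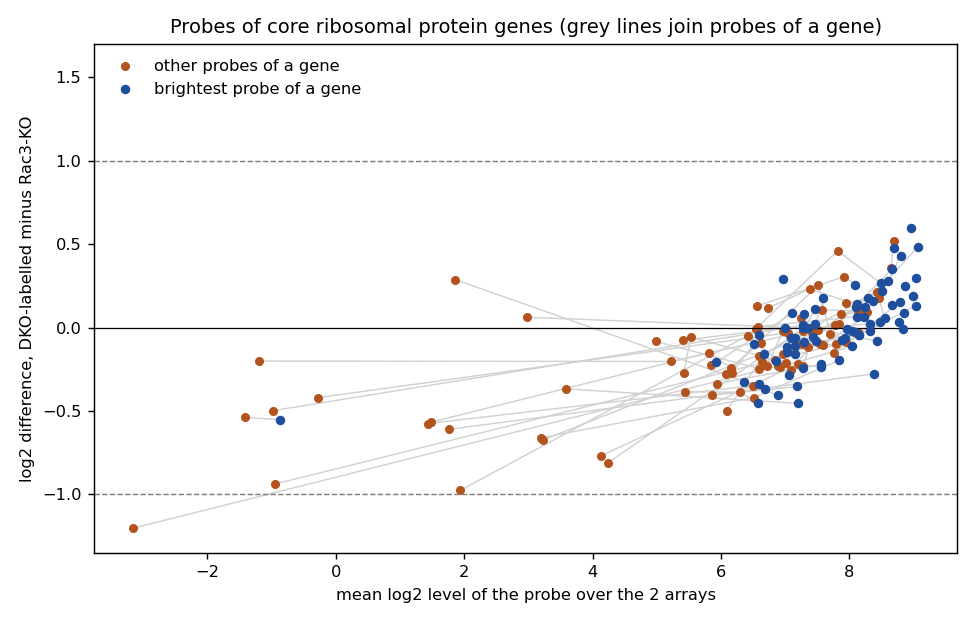
Log2 difference (vertical axis) against the mean log2 level over both arrays (horizontal axis) for the 159 probes of core genes well above background on both arrays; blue points are the brightest probe of a gene, orange points its other probes, grey lines join probes of a gene, dashed lines mark 2-fold. Probes at a mean level below 4 have a median difference of -0.56 and those above 8 a median of 0.13.

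Other translation genes were set beside the core proteins. Mitochondrial ribosomal proteins translate the messengers of the mitochondrial genome. Of these, too, 0 of 77 measured genes were at least 2-fold apart, with a median of -0.04. The range ran from -0.68 for Mrps6 and Mrpl35 to 0.35 for Mrpl4 and 0.49 for Mrps34. Past the 95% limits of the signal error lay 1 upwards and 12 downwards, beside 4 and 4 of the core genes. Over all measured genes these shares were 24.2% and 24.3%. Mrpl21 was not measured. Ribosome assembly factors, which process ribosomal RNA in the nucleolus, had a median of -0.31; of 70 measured, 58 lay below 0, 3 of them past 2-fold, and 0 were past 2-fold upwards. These 3 are 4.29% of the list, below the 6.62% of all measured genes, of which 7150 of 14144 lay below 0, and with normexp 1 was left. The 3 were Wdr12 and Pes1, partners in a complex for 60S assembly, at -1.29 and -1.07, and Dkc1, the pseudouridine synthase, at -1.10. The highest were Bysl at 0.31 and Noc3l at 0.26. The medians of keratinocyte and muscle markers on the same arrays were -1.82 and 2.60, and the part of cell composition in the assembly factor values was not tested.

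Of 56 measured translation factors, 2 (3.57%) were past 2-fold upwards and 1 (1.79%) downwards, below the shares of all measured genes, 7.71% and 6.62%, with a median of -0.004. With normexp, scaling by the median, quantile normalization or the stricter filter on dim probes, 1 was past 2-fold upwards. Eef1a2, the form of elongation factor 1 alpha made in muscle and neurons, had signals of 88.9 and 258 and a difference of 2.53, and its general counterpart Eef1a1 had signals of 149153 and 86907 and a difference of 0.21. The Rac3-KO signal of Eef1a2 fell below the stricter filter on dim probes, so Eef1a2 was not counted there. As with Rpl3l and Rpl3, the form made in muscle was at least 2-fold higher and the general form was not. Eif4ebp1, a repressor of cap-dependent initiation, differed by 1.05, close to the 2-fold threshold. With scaling by the median it fell short of 2-fold, and Eef1a2 was the 1 factor left upwards. Eef1e1, a subunit of the multi-synthetase complex, was lower by a log2 difference of -1.17, and Eif1ax by -0.76.

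**Figure D4:**
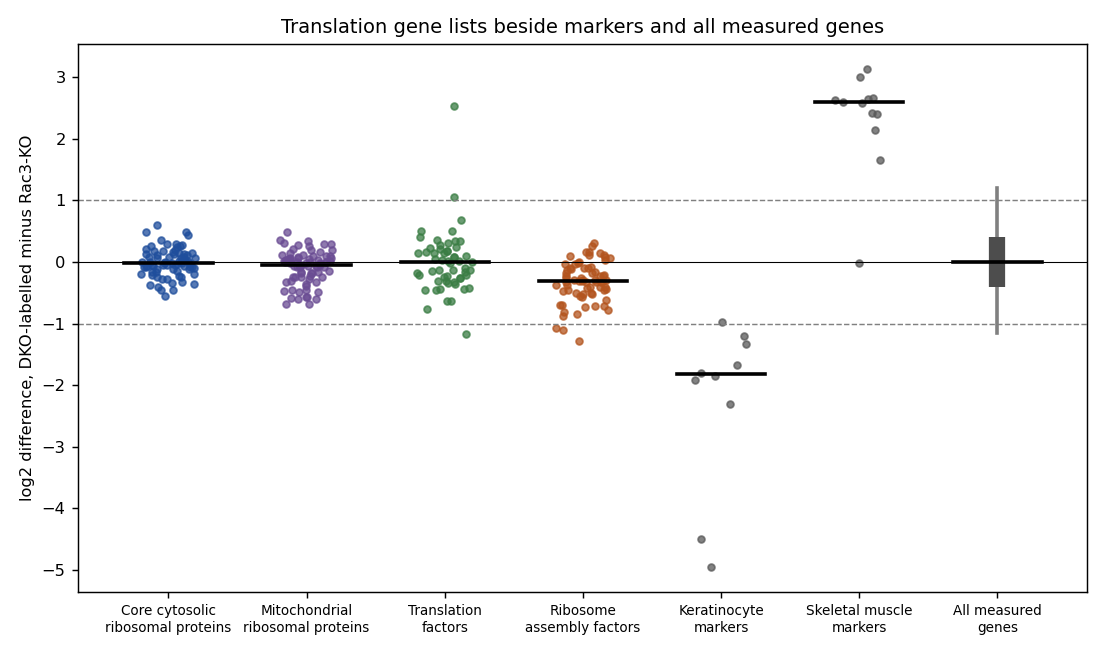
Log2 difference between the DKO-labelled and the Rac3-KO array (vertical axis) for the genes of each list (1 point a gene, black bar the median) and for all measured genes (thick bar the central 50%, thin bar the central 90%, black bar the median); dashed lines mark 2-fold. Core and mitochondrial ribosomal proteins lie within 2-fold throughout, assembly factors are centred at -0.31, and the point of Eef1a2 lies at 2.53, and 11 of 12 muscle markers lie above 2-fold with Myh4 at -0.02.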

How the data were processed

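The authors deposited scanner files of spot intensity for 2 arrays, and a log2 value table. Per the file headers the scans were read with Feature Extraction 10.10.1.1, whereas 9.1 is named in the submitters' processing notes. The deposited log2 values equal the log2 processed signal minus a constant per array, within 0.001 for 100% of probes spotted once. The software's flags, deposited as other columns, gave detection and outliers.

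Log2 processed signals were averaged per probe without control and outlier spots, and each array's 75th percentile was subtracted. Accessions were matched without versions to RefSeq names of the GRCm38.p6 table, whose build differs from that of the array's design; only names and promoters were taken from it. The probe of highest mean level stood for a gene, and a gene counted as measured where both arrays had it well above background. Signal errors of the 2 spots were combined on the log2 scale. No test was run, as each group had 1 array. The number of arrays limits the precision.

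Members and lists were chosen with earlier results of these data known. Genes named were all paralogues and parents, the 6 highest and 6 lowest core genes, the core genes with the brightest probes (among them Rplp0, Rps20 and Rps14), members with probes at least 1 apart and the 2 highest and lowest of each other list; others were named for their role after their values were seen, and some results are not reported here. Normexp (limma 3.58.1, offset 50) used the median spot signal, since a mean spot signal was not used here. Scripts were tested on simulated data.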

Additional observations from a re-analysis of the deposited data

How the results depend on the processing

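Fold thresholds, background correction, scaling, filters, choice of probe, outlier spots and the deposited table were varied. Of 0 core genes at least 2-fold apart, the count stayed at 0 in both directions under all of them except the spike-in scale, on which 76 were lower, and a 1.5-fold threshold, at which 1 was higher (Rpl41). The core median was -0.23 with quantile normalization and -2.08 on the spike-in scale, where the median of all genes was -2.08 too. With scaling by the median, the median of all genes moved to -0.10, the core median to -0.10, and higher genes made up 43.6% in place of 53.8% of those 2-fold apart (0.106% on the spike-in scale). On the spike-in scale the medians were -2.12 for mitochondrial ribosomal proteins (77 lower), -2.39 for assembly factors (70 lower), -2.08 for translation factors (55 lower, 0 higher) and -1.95 for the proteins under other symbols (3 lower; -0.24 with quantile normalization). Assembly factors at least 2-fold lower numbered 1 with normexp, 13 at 1.5-fold and 0 at 3-fold, against 3. Translation factors higher numbered 1 with normexp, scaling by the median, quantile normalization, the stricter filter or 3-fold, against 2; those lower numbered 4 at 1.5-fold and 0 at 3-fold, against 1. Mitochondrial ribosomal proteins lower numbered 4 at 1.5-fold. Rpl3l minus Rpl3 was 2.37 with normexp and 2.86 with quantile normalization (a constant per array cancels in it), and no other pair moved by more than its signal error, although Rps27l minus Rps27 was -0.03 with normexp and Rpl7l1 minus Rpl7 0.005 with quantile normalization. Where the construction of an alternative does not show it, the cause was not tested. No paired analysis was possible because each group had 1 array.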

Other observations

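Among the genes that the symbol rule left out, only Rps6ka6 and Rps6ka3 lay outside the range of the core proteins. Of 10 genes of the S6 kinase and related families, which carry the Rps6k symbol, 9 were well above background on both arrays. Rps6ka6 had processed signals of 1423 and 238 and a log2 difference of -1.58. It was the only 1 of the 9 at least 2-fold apart, against 14.3% of all measured genes in either direction. Rps6ka3 differed by 0.73 and Rps6kb1, which phosphorylates Rps6, by -0.30. These genes were not matched to the core genes for level. The pseudogene Rpl34-ps1 had signals of 44551 and 24150 and differed by 0.11, beside -0.04 for Rpl34, and a probe may read both.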
